A study of Mus musculus with 14 samples.

Results

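The alpha-beta T cell receptor sits at the cell surface as a complex of several chains, and the transcripts of 7 genes that encode them are described here: the constant regions of the alpha chain (Trac) and of the beta chain (Trbc1 and Trbc2), the CD3 chains delta (Cd3d), epsilon (Cd3e) and gamma (Cd3g), and the zeta chain (Cd247). They were chosen by name as the constant part of the complex, from the 55486 genes of a table of read counts, and all 7 were in the table and passed the filter on low counts in every comparison. The cells were CD8 T cells isolated from mice, activated with antibodies to CD3 and CD28 on day 0 and expanded in culture to day 8. The antibodies act on the receptor complex itself, and all groups received them.

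There were 4 groups. The KO group (3 libraries) is labelled CreERT2 heterozygous, Dot1l-flox homozygous and OT-I heterozygous. The WT group (3 libraries) is labelled CreERT2 heterozygous, Dot1l wild type and OT-I heterozygous. Both received 10 nM 4-hydroxytamoxifen, which activates the CreERT2 recombinase and thereby deletes floxed sequence. The EPZ group (4 libraries) received EPZ-5676, an inhibitor of the histone methyltransferase DOT1L, every other day, and the DMSO group (4 libraries) received its solvent at 0.1%. The dose of EPZ-5676 reads 10 mM under treatment but 10 uM in the names of the libraries, and nothing in the files decides between these. EPZ and DMSO cultures are labelled wild type for both CreERT2 and Dot1l-flox, and OT-I heterozygous. OT-I is a pair of transgenes for the alpha and beta chains of a single receptor against a peptide of ovalbumin, so every culture could transcribe receptor chains from the transgenes as well as from its own loci. The table does not separate the 2 sources, which limits what the constant-region counts say about the endogenous genes. The labels number the libraries as biological replicates. DMSO and EPZ libraries of the same number came from the same animal, per the library names.

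The receptor's alpha and beta chains bind the antigen but have almost no cytoplasmic part. They are carried by CD3 dimers, epsilon with delta and epsilon with gamma, and by a zeta dimer, whose cytoplasmic tails hold the tyrosine motifs (ITAMs) that are phosphorylated when the receptor is engaged. An incomplete complex is retained and degraded inside the cell, so that all chains are needed for the receptor to reach the surface, and in the thymus the beta chain is made before the alpha chain.

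Cd3g, Cd3d and Cd3e lie side by side within 40056 bases of chromosome 9 (mm10). Cd3g (ENSMUSG00000002033, chr9:44969572-44980431, minus strand) and Cd3d (ENSMUSG00000032094, chr9:44981786-44987339, plus strand) are transcribed away from each other, with their starts 1355 bases apart. Cd3e (ENSMUSG00000032093, chr9:44998740-45009627, minus strand) ends 11401 bases from the end of Cd3d. Cd247 (ENSMUSG00000005763) lies at chr1:165788681-165877277 on the plus strand, and Trac (ENSMUSG00000076928) at chr14:54220521-54224206, also on the plus strand. Trbc1 (ENSMUSG00000076490, chr6:41538218-41539881) and Trbc2 (ENSMUSG00000076498, chr6:41546730-41548352) follow each other on the plus strand with 6849 bases between them. Antisense genes overlap Cd3e, and other genes on both strands overlap ends of Cd247. The strand setting of the counting is not given in the sources used here. Reads in these overlaps may therefore have been counted for Cd3e and Cd247 or left out.

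Trbc1 and Trbc2 are near-identical over their first 3 exons, which limits how far their counts can be told apart. In the GENCODE M21 transcripts their first exons, of 375 bases each, differ at 1 base, the substitution C260A (Trbc1 base, position from the first base of the constant region, Trbc2 base). Over the first 3 exons, 500 bases, they differ at 19 positions, an identity of 96.2%. Within these 500 bases, the stretch that separates them best runs from base 383 to base 482. It is shown here because, within that part, only reads that cross differing bases can be given to one copy. The remainder of each transcript was not aligned and entered only the count of windows below. Capitals mark the 16 differing bases.
Trbc1: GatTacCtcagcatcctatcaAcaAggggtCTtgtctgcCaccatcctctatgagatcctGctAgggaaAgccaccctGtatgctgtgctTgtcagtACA
Trbc2: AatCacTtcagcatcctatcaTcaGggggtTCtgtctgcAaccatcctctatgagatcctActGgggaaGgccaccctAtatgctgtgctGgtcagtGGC
Of all 50-base windows, 41.1% of those in Trbc1 also occur in Trbc2, and 44.0% of those in Trbc2 also occur in Trbc1. How reads that match both genes were counted is not given in the sources used here, so the split between Trbc1 and Trbc2 is uncertain, as is their sum if such reads were left out.

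RefSeq promoter windows (GRCm38.p6, 250 bases before to 50 bases after each gene's start) exist in the table used here for 4 of the 7 members, Cd3d, Cd3e, Cd3g and Cd247. The windows of the 3 neighbouring CD3 genes are shown because these genes did not move together in the results that follow. Capitals mark CTTTGA or its reverse complement, the core bound by TCF and LEF factors, searched on both strands. This motif was picked for the capitals after the counts of all 6 motifs had been seen.
Cd3d, chr9:44981536-44981835, plus strand: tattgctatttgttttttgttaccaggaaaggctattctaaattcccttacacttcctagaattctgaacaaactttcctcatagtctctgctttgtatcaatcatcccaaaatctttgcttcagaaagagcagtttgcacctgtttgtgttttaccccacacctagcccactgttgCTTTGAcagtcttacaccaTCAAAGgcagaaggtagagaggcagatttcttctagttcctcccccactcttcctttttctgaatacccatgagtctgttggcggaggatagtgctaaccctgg
Cd3g, chr9:44980382-44980681, minus strand: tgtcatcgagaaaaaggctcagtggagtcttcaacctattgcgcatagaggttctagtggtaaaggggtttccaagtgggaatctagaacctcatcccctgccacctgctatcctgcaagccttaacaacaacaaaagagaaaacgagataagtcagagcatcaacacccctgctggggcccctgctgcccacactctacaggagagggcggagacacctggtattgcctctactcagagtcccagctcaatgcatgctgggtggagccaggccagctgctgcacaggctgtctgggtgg
Cd3e, chr9:45009562-45009861, minus strand: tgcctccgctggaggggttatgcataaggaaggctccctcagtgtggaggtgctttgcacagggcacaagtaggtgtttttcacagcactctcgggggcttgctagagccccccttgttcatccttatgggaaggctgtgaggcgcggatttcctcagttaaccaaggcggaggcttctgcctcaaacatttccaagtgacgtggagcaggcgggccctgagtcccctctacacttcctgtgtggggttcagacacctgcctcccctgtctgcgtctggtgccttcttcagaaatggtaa
The Cd3d window held 2 copies, beginning at -73 and -54 from the start, the Cd247 window held 1, and the Cd3g and Cd3e windows held 0. Of 32851 promoter windows in the table, 16.0% held at least 1 copy. The ETS core GGAA occurred 6 times in the Cd3d window, 5 times in that of Cd3e and 2 times each in those of Cd3g and Cd247, and at least 1 copy in 96.0% of all windows. The E-box CANNTG, which can overlap other motifs, occurred 4 times in Cd3g, 2 times each in Cd3e and Cd247 and 1 time in Cd3d (72.3% of all windows). GATA occurred 2 times each in Cd3g and Cd3d, 1 time in Cd247 and 0 times in Cd3e (57.9% of all windows). The RUNX core TGTGGT (16.8% of all windows) and the TATA box TATAAA (13.6%) were in none of the 4 windows. GC content was 42.3% in the Cd3d window and 43.7% in that of Cd247, 54.0% in Cd3g and 56.7% in Cd3e, against a median of 52.7% over all windows.

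Libraries held between 5643724 and 20586093 counts, a ratio of 3.65 between the deepest and the shallowest. Levels are given in CPM, which corrects counts for library size with TMM factors computed over all 14 libraries. Dot1l, the targeted gene, was higher in the libraries labelled KO, at 203 ± 14.4 CPM, than in WT, at 136 ± 3.74 CPM (SD, n = 3 each; log2 fold change 0.59, edgeR quasi-likelihood test, adjusted p = 1.3e-05). A count over the whole gene does not show whether the floxed part was removed, so the KO label rests on the submitters' word. The sex read from Xist and Y-linked genes differed from the label in 4 of the 6 KO and WT libraries (KO 2, KO 3, WT 2 and WT 3) and in none of the 8 EPZ and DMSO libraries. KO 2 and WT 3 were labelled female and read as male, and KO 3 and WT 2 the reverse. Each group thus held as many libraries of each sex by label as by measurement. Whether libraries were exchanged, within a group or between groups, was not tested. The fitted changes that use KO or WT are therefore given with these 4 libraries and without them. In the fit without them, KO 1 and WT 1 stand alone beside the EPZ and DMSO libraries, which supply the spread, so each lone library was assumed to vary like the others. There Dot1l changed by 0.70 (adjusted p = 0.0333) in KO against WT. The defining CD8 genes Cd8a and Cd8b1 summed to 193 to 255 CPM in KO and 1263 to 1295 CPM in WT, and to 613 to 674 CPM in EPZ and 1337 to 1497 CPM in DMSO.

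**Figure D1:**
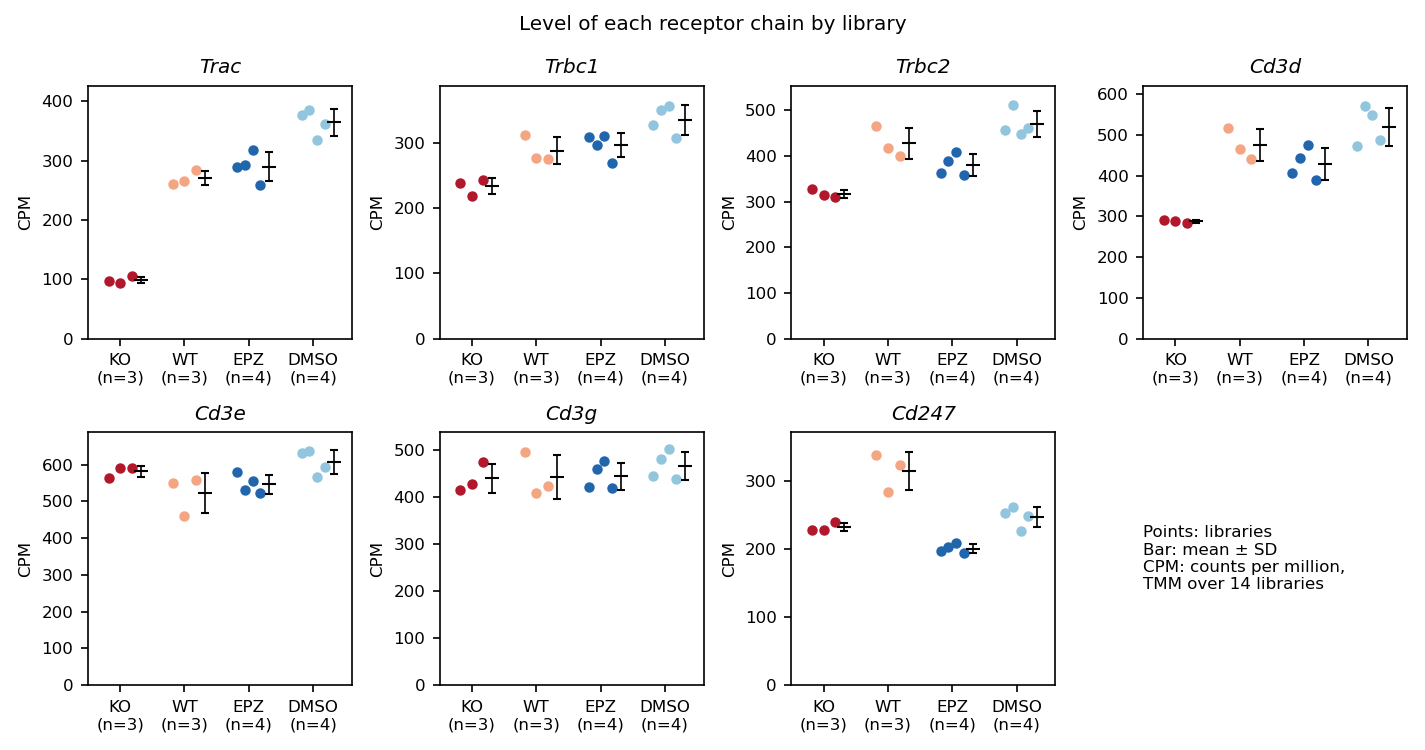
Level of each chain in CPM (linear axis from 0) in each library of the KO, WT, EPZ and DMSO groups, with a bar for mean ± SD. Trac lies between 94.2 and 105 CPM in KO and between 261 and 283 CPM in WT, while the Cd3g points of all groups overlap.

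The alpha constant region was much lower in KO-labelled cells, the beta constant regions were moderately lower, and of the CD3 and zeta chains Cd3d and Cd247 were lower while Cd3e and Cd3g did not pass the test. This comparison sets cultures labelled KO against cultures labelled WT, and the counts do not show the loss of DOT1L itself. Trac, which encodes the constant region of the alpha chain, had 96.4, 94.2 and 105 CPM in KO, against 261, 266 and 283 CPM in WT. All KO libraries lay far below the lowest WT library. The log2 fold change was -1.45 ± 0.06 (SE, n = 3 each; edgeR quasi-likelihood test, Benjamini-Hochberg adjusted p = 4.3e-09). In bulk RNA, fewer cells that transcribe a gene and less of its RNA per cell cannot be told apart, here and in all other results.

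Trbc1, one of the alternative beta constant regions, had 238, 219 and 243 CPM in KO, against 312, 277 and 274 CPM in WT. Its groups did not overlap, and the log2 fold change was -0.29 ± 0.07 (adjusted p = 0.00395). Trbc2, the other beta constant region, had 327, 314 and 309 CPM in KO, against 465, 418 and 399.9 CPM in WT. It fell by 0.42 on the log2 scale (SE 0.07, adjusted p = 2.2e-04). Both fold changes were smaller than that of Trac.

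Cd3d, the delta chain, was lower in KO, with 289.7, 289 and 283 CPM in KO against 518, 464 and 441 CPM in WT. Its KO libraries were nearly equal to each other and all below the lowest WT library (log2 fold change -0.71 ± 0.07, adjusted p = 2.8e-06). Cd3e, the epsilon chain that pairs with both delta and gamma, had 563, 590.0 and 592 CPM in KO, against 551, 461 and 557 CPM in WT. The KO libraries all lay above the WT libraries, but the gap to the highest of them was small, and the fold change of 0.16 ± 0.07 was not called (adjusted p = 0.0891). Cd3g, the gamma chain, had 415, 427 and 474 CPM in KO, against 494, 407 and 423 CPM in WT. The Cd3g groups overlapped and their means were nearly the same (-0.00 ± 0.08, adjusted p = 0.996). Cd247, which encodes the zeta chain with its repeated ITAMs, had 228, 228 and 239 CPM in KO, against 337, 284 and 323 CPM in WT. Its KO libraries all lay below the WT libraries (-0.43 ± 0.07, adjusted p = 1.9e-04).

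In all, 5 of 7 members were lower and 0 were higher in KO at an adjusted p of 0.05. Of the 11570 genes tested, 40.4% were called, 20.3% higher and 20.2% lower. The median log2 fold change was -0.42 over the members and -0.0064 over all genes tested. The share of all genes whose groups did not overlap was not computed, here or in the other comparisons. Without the 4 libraries of differing sex, 6.89% of 13270 genes were called, 3.61% higher and 3.28% lower, and 4 of 7 members were lower. There Trac changed by -1.44 ± 0.15 (adjusted p = 4.3e-04), Cd3d by -0.84 ± 0.17 (adjusted p = 0.013), Cd247 by -0.56 ± 0.12 (adjusted p = 0.0203) and Trbc2 by -0.51 ± 0.14 (adjusted p = 0.0466). Trbc1 changed by -0.39 ± 0.14 there and was not called (adjusted p = 0.125), and Cd3e (0.03, adjusted p = 0.922) and Cd3g (-0.25, adjusted p = 0.303) were not called either. With the measured sex as a covariate over all 6 libraries the same 5 members were called. In that fit 4659 of 11570 genes were called, 2328 higher and 2331 lower.

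**Figure D2:**
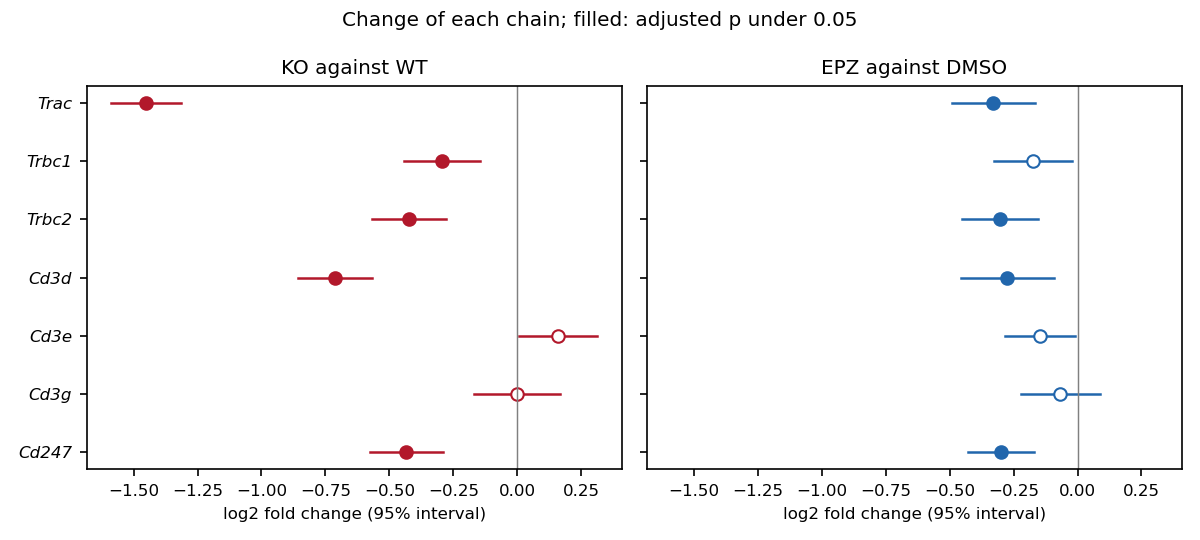
Log2 fold change of each chain with its 95% interval, for KO against WT on the left and EPZ against DMSO on the right, and filled points for an adjusted p under 0.05. Trac stands apart at -1.45 in KO, and 5 chains are filled there, against 4 in EPZ, where the fit had no animal block.

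Inhibitor-treated cells showed small decreases, of which those of Trac, Trbc2, Cd3d and Cd247 passed the test without the animal as a block. With the animal as a block, that of Trbc1 passed as well. The comparison addresses what inhibition of the enzyme does in cells without Cre. Trac had 289, 293, 318 and 258 CPM in EPZ, against 377, 385, 334 and 361 CPM in DMSO. All EPZ libraries lay below all DMSO libraries, and the log2 fold change was -0.33 ± 0.07 (SE, n = 4 each; edgeR quasi-likelihood test, adjusted p = 0.00979). Trbc2 had 362, 389.6, 409 and 357 CPM in EPZ, against 457, 512, 449 and 460.5 CPM in DMSO. It was lower in EPZ without overlap (-0.30 ± 0.07, adjusted p = 0.00962). Trbc1 had 309, 297, 310.1 and 269 CPM in EPZ, against 326, 350.1, 356 and 307 CPM in DMSO. These groups overlapped, and the change of -0.17 ± 0.07 was not called (adjusted p = 0.104), but it was with the animal as a block (adjusted p = 0.0403).

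Cd247 had 196, 202, 209 and 193 CPM in EPZ, against 252, 261, 226 and 248 CPM in DMSO. The groups did not overlap (-0.30 ± 0.06, adjusted p = 0.00496). Cd3d had 406, 442, 475 and 389.6 CPM in EPZ, against 472, 570.2, 547 and 486 CPM in DMSO. 1 EPZ library lay above the lowest DMSO library, and the change of -0.27 ± 0.08 passed narrowly (adjusted p = 0.0395). That call was lost when any of DMSO 2, DMSO 3, EPZ 1, EPZ 2 or EPZ 4 was left out, with adjusted p up to 0.114 over the 8 omissions, while with the animal as a block it was 0.00704. Cd3e had 579, 531, 554 and 523 CPM in EPZ, against 631, 637, 567 and 593 CPM in DMSO (-0.15 ± 0.06, adjusted p = 0.124), and its groups overlapped. Cd3g had 420.2, 459, 475 and 419 CPM in EPZ, against 443, 481, 501 and 437 CPM in DMSO (-0.07 ± 0.07, adjusted p = 0.542), and its groups overlapped throughout. Within an animal, each of the 7 members was lower in EPZ than in DMSO in 4 of 4 animals, as were 21.2% of the 12208 genes tested in CPM.

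At an adjusted p of 0.05, 4 of 7 members were lower and 0 higher in EPZ in the fit without the animal as a block. Of 12208 genes tested, 20.2% were called there, 11.9% higher and 8.31% lower. With the animal as a block, Trbc1 was called as well, and of all 12208 genes 3163 were called, 1792 higher and 1371 lower. Without the block, the median log2 fold change was -0.27 over the members and -0.0075 over all genes tested.

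The KO and EPZ effects were set against each other on all 14 libraries as the log2 change of KO against WT minus that of EPZ against DMSO. This contrast was not fitted with the animal as a block. Trac fell further in KO by 1.13 on the log2 scale (SE 0.10, adjusted p = 5.7e-06). Cd3d also fell further in KO, with a difference of -0.45 ± 0.12 (adjusted p = 0.0271), a call lost in 8 of the 14 omissions of a library, with adjusted p up to 0.0812. These were the omissions of KO 1, KO 2, KO 3, WT 1, EPZ 2, EPZ 3, DMSO 1 and DMSO 4. Cd3e differed by 0.30 ± 0.10 toward KO and was not called (adjusted p = 0.0782), although it was called with DESeq2 (adjusted p = 0.0191), with a filter at 10 CPM (adjusted p = 0.0468) and without DMSO 3 (adjusted p = 0.0472). The differences of Cd247 (-0.14, adjusted p = 0.413), Trbc1 (-0.13, adjusted p = 0.52), Trbc2 (-0.13, adjusted p = 0.495) and Cd3g (0.06, adjusted p = 0.803) were not called. Thus 2 of 7 members differed between the effects, where 7.6% of 12639 genes did, 3.29% with a positive and 4.31% with a negative difference. Without the 4 libraries of differing sex, 0.512% of genes were called, 0.203% with a positive and 0.309% with a negative difference, and of the members Trac was (-1.11 ± 0.17, adjusted p = 0.0172), while Cd3d (-0.56 ± 0.19, adjusted p = 0.273) and Cd3e (0.18, adjusted p = 0.668) were not. The effects came from different animals, drug exposures and cultures, so enzyme loss and inhibition cannot be told apart from these.

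The balance between chains was read from ratios within a library, which do not depend on how libraries are scaled. In KO the alpha constant region was scarce next to the beta constant regions. The first value listed for KO and for WT is that of KO 1 and WT 1, the libraries whose sex matched the label. The ratio of Trac counts to Trbc1 plus Trbc2 counts was 0.171, 0.177 and 0.19 in KO, against 0.336, 0.383 and 0.42 in WT. The groups did not overlap, and the geometric mean of the ratio (from the mean of its log2 values) in KO was 0.473 times that in WT. The ratio was 0.431, 0.427, 0.442 and 0.412 in EPZ, against 0.481, 0.447, 0.415 and 0.471 in DMSO. Those groups overlapped, and the geometric mean in EPZ was 0.945 times that in DMSO (exact two-sided permutation test, p = 0.171). The smallest p that the exact permutation test allows is 0.1 for 3 libraries against 3 and 0.0286 for 4 against 4 or 3 against 4. With 21 tests over 7 ratios and 3 comparisons no ratio passed an adjusted p of 0.05, so the fits across all genes carry the calls and the ratios describe. Several ratios share a chain and are not separate observations. How often ratios of other genes do not overlap between groups was not computed.

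Among the signalling chains, delta and zeta were low relative to epsilon in KO, and gamma exceeded delta. Cd3d over Cd3e was 0.515, 0.49 and 0.478 in KO, against 0.939, 1.01 and 0.79 in WT. Cd3g over Cd3d was 1.43, 1.48 and 1.68 in KO, against 0.954, 0.877 and 0.96 in WT, although the starts of these genes are neighbours. Cd247 over Cd3e was 0.405, 0.387 and 0.404 in KO, against 0.612, 0.616 and 0.58 in WT. None of these 3 ratios overlapped between KO and WT, and each reached the smallest p of the design (exact permutation test, p = 0.1, adjusted p = 0.175). Cd3g over Cd3e was the exception, with 0.737, 0.724 and 0.802 in KO against 0.897, 0.884 and 0.759 in WT, and overlapped (exact permutation test, p = 0.2). All constant-region counts over all CD3 counts were 0.522, 0.48 and 0.487 in KO, against 0.664, 0.721 and 0.674 in WT, again without overlap.

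Of the EPZ ratios, Cd3g over Cd3d was 1.04, 1.04, 1 and 1.08 in EPZ, against 0.938, 0.843, 0.915 and 0.899 in DMSO, without overlap (exact permutation test, p = 0.0286, adjusted p = 0.15). Cd247 over Cd3e was 0.339, 0.381, 0.378 and 0.37 in EPZ, against 0.4, 0.41, 0.398 and 0.418 in DMSO, also without overlap, and constant regions over CD3 chains ran from 0.664 to 0.689 in EPZ, against 0.706 to 0.75 in DMSO. Cd3d over Cd3e and Cd3g over Cd3e overlapped. Over the 4 animals, the exact sign-flip test could not go below p = 0.125, and it gave that value for Cd3g over Cd3d, Cd247 over Cd3e, Cd3d over Cd3e and constant regions over CD3 chains. The Trbc1 share of both beta constant regions was 42.4% ± 1.52 in KO and 40.2% ± 0.43 in WT (SD, n = 3 each), and 43.8% ± 1.49 in EPZ and 41.6% ± 1.88 in DMSO (SD, n = 4 each), with no overlap between KO and WT and overlap between EPZ and DMSO.

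**Figure D3:**
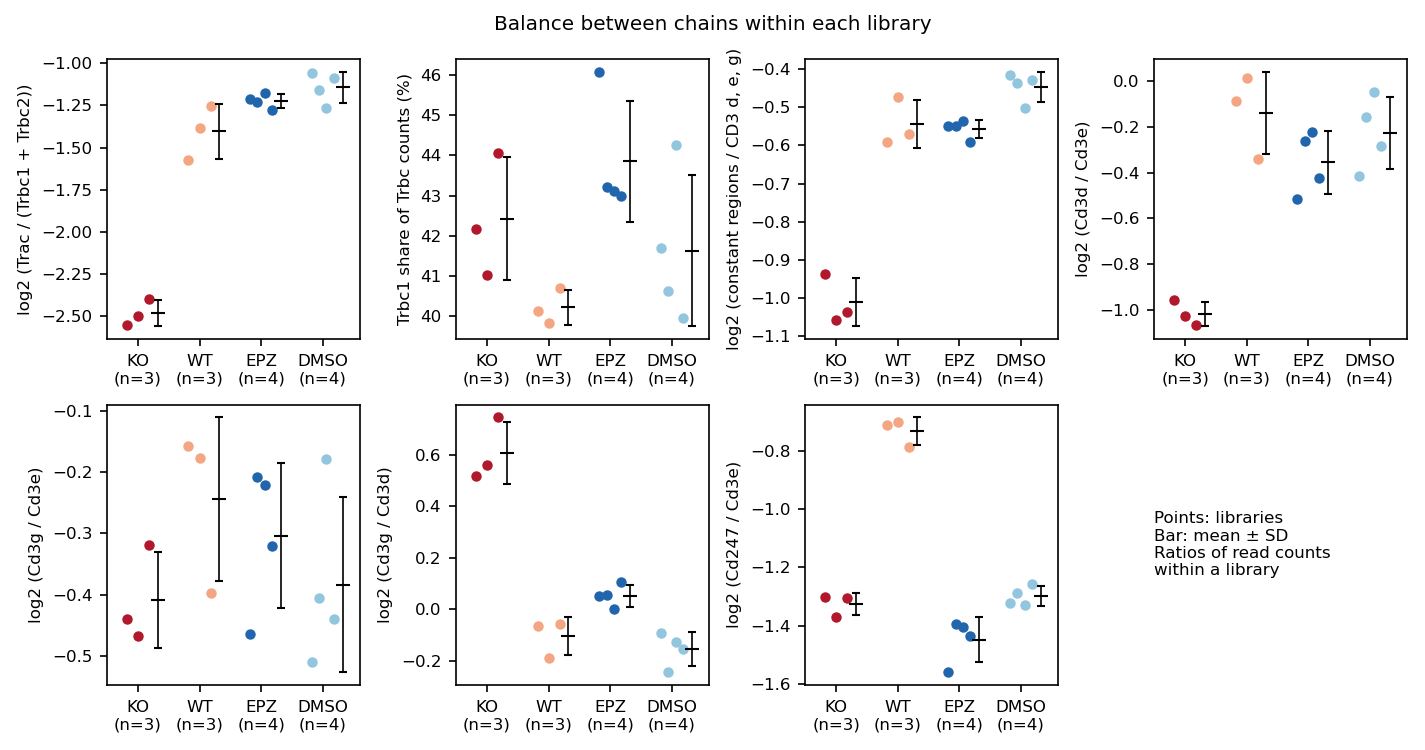
Ratios of read counts within each library, as log2 values, and the Trbc1 share in percent (axes do not start at 0), for the KO, WT, EPZ and DMSO groups, with a bar for mean ± SD. The KO points stand apart from the WT points in every panel but that of Cd3g over Cd3e, and Trac over Trbc1 plus Trbc2 averages -2.48 in KO and -1.40 in WT. Several panels share a chain, so they are not separate observations.

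To test the balance with the spread of all genes, libraries were also scaled to their own Cd3e counts, a choice made after the data had been seen. This scaling moved the median over all genes tested to -0.16 in KO against WT, where 38.4% of genes were then called, 10.8% higher and 27.6% lower. Relative to Cd3e, Trac changed by -1.62 ± 0.11 in KO (edgeR quasi-likelihood test, adjusted p = 3.0e-09) and Cd3d by -0.88 ± 0.11 (adjusted p = 4.5e-06). Cd247 changed by -0.59 ± 0.09 (adjusted p = 9.4e-05), Trbc2 by -0.59 ± 0.11 (adjusted p = 3.0e-04) and Trbc1 by -0.46 ± 0.11 (adjusted p = 0.00241). Cd3g changed by -0.17 ± 0.10 and was not called (adjusted p = 0.211). Without the 4 libraries of differing sex, where 5.4% of genes were called, 2.76% higher and 2.65% lower, Trac (-1.47 ± 0.15, adjusted p = 3.4e-04), Cd3d (-0.87 ± 0.19, adjusted p = 0.0247) and Cd247 (-0.59 ± 0.13, adjusted p = 0.0265) were called relative to Cd3e. Trbc2 (-0.54, adjusted p = 0.0653) and Trbc1 (-0.42, adjusted p = 0.171) were not. In EPZ against DMSO the scaling moved the median over all genes to 0.14, with 25.9% of genes called, 23% higher and 2.88% lower, and 0 of the 6 other members were called. The nearest was Trac at -0.18 ± 0.07 (adjusted p = 0.0875), and with the animal as a block Trbc2 was called at -0.16 (adjusted p = 0.0428).

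Because the genes differ in length, levels between chains were compared per kilobase of annotated exon. Trbc2 and Trbc1 had the highest levels per kilobase in all 4 groups, and Cd247 the lowest. Trbc2 had 458 CPM per kilobase in KO and 618 in WT, and 548 in EPZ and 678 in DMSO, on means. Cd247 had 43.5 CPM per kilobase in KO and 59.0 in WT, and 37.6 in EPZ and 46.3 in DMSO. Trac had 105 CPM per kilobase in KO and 289 in WT, and 310 in EPZ and 390 in DMSO. Trac thus ranked 6 of 7 in KO and 3 of 7 in the other groups. It made up 12.0% ± 0.589 of the summed per-kilobase level of the 3 constant regions in KO and 22.4% ± 1.95 in WT, and 24.7% ± 0.549 in EPZ and 25.7% ± 1.22 in DMSO (SD). The beta level per kilobase therefore exceeded the alpha level in every group. Taking the longest transcript in place of all exons moved the levels of the CD3 genes and of Cd247 up, and the rank of Trac in WT to 4.

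**Figure D4:**
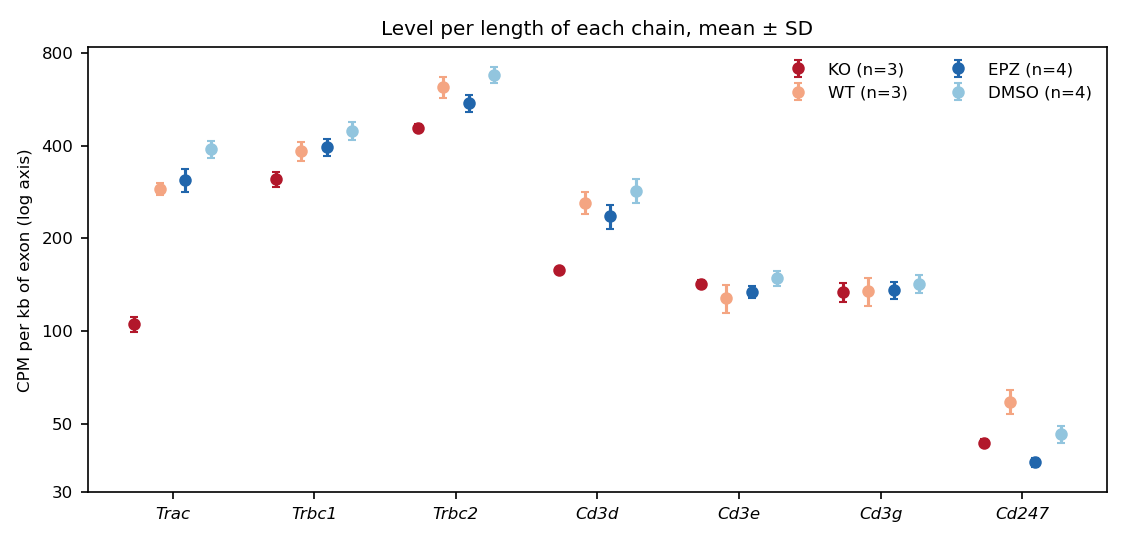
Level of each chain in CPM per kilobase of exon on a log axis, as mean ± SD of the 3 KO, 3 WT, 4 EPZ and 4 DMSO libraries. Trac lies at 105 in KO and 289 in WT, below Trbc1 and Trbc2 in every group, and Cd247 is lowest throughout.

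Across the 4 groups Trac was ordered KO, WT, EPZ and DMSO from low to high, with WT and EPZ overlapping. Trbc1 had the same order, with WT overlapping EPZ and EPZ overlapping DMSO. Trbc2 and Cd3d were lowest in KO, followed by EPZ, WT and DMSO, and for both genes EPZ overlapped WT and WT overlapped DMSO. Cd247 was ordered EPZ, KO, DMSO and WT, and KO and DMSO overlapped. Cd3e ran from 523 ± 54.2 CPM in WT to 607 ± 33.0 CPM in DMSO and Cd3g from 439 ± 31.4 CPM in KO to 466 ± 30.4 CPM in DMSO, with all neighbours in their orders overlapping.

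WT was set against DMSO to place the control cultures, which differ in CreERT2, in 4-hydroxytamoxifen, in DMSO and in experiment, and these cannot be told apart. The WT libraries are also the ones KO is set against, and the DMSO libraries those EPZ is set against. Trac was lower in WT (270.1 ± 11.8 CPM, n = 3) than in DMSO (364 ± 22.4 CPM, n = 4), a log2 fold change of -0.44 ± 0.08 (edgeR quasi-likelihood test, adjusted p = 6.0e-04). Cd247 was higher in WT (315 ± 27.7 CPM) than in DMSO (247 ± 15.0 CPM), by 0.34 ± 0.08 (adjusted p = 0.00495), and its ratio to Cd3e did not overlap between WT and DMSO. Trbc1 (-0.23 ± 0.08, adjusted p = 0.0318) and Cd3e (-0.23 ± 0.09, adjusted p = 0.0496) were lower in WT, both narrowly. The Cd3e call was lost without any library but DMSO 3, with adjusted p up to 0.201, and that of Trbc1 without WT 2, WT 3 or DMSO 2, with adjusted p up to 0.13. Trbc2 (-0.15), Cd3d (-0.14) and Cd3g (-0.09) were not called. With WT 1 alone, Trac (-0.48, adjusted p = 0.0119) and Cd247 (0.45, adjusted p = 0.00436) were called, and Trbc1 (-0.10, adjusted p = 0.535) and Cd3e (-0.14, adjusted p = 0.327) were not, where 31.2% of genes were called, 16.2% higher and 14.9% lower. In all 1 of 7 members was higher and 3 were lower, where 23.7% and 24.9% of 11825 genes were called in these directions (48.6% in all), and the median was -0.15 over the members and -0.02 over all genes tested.

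The variable segments gave a further view of the receptor transcripts. Nearly all beta variable counts came from Trbv12-1, a segment of the family used by the OT-I beta chain, with 2526 of 2617 Trbv counts in KO and 4966 of 5053 in WT, and 9712 of 9854 in EPZ and 11820 of 11956 in DMSO. Trbv12-1 averaged 70.8 ± 1.92 CPM in KO and 150.1 ± 2.64 CPM in WT (SD, n = 3 each), and 141 ± 15.3 CPM in EPZ and 226 ± 19.7 CPM in DMSO (SD, n = 4 each). The levels of this segment did not overlap between KO and WT or between EPZ and DMSO. Summed alpha variable segments were at 15.0 ± 1.14 CPM in KO and 36.1 ± 3.28 CPM in WT, and at 36.5 ± 3.74 CPM in EPZ and 45.4 ± 3.76 CPM in DMSO. Trav14, the family of the OT-I alpha chain, gave the smaller part of them, 107 of 519 Trav counts in KO and 170 of 1156 in WT, and 352 of 2522 in EPZ and 400 of 2406 in DMSO. The summed beta joining segments did not follow Trbv12-1, at 5.95 ± 0.454 CPM in KO and 5.72 ± 0.247 CPM in WT, and at 8.51 ± 2.13 CPM in EPZ and 8.95 ± 1.36 CPM in DMSO. They rested on 217 counts in KO and 191 in WT. Summed alpha joining segments ran from 0.107 to 0.760 CPM in KO and from 1.24 to 3.48 CPM in WT, without overlap. They overlapped between EPZ (0.922 to 3.14 CPM) and DMSO (0.901 to 3.67 CPM). These alpha sums rested on 12 counts in KO and 57 in WT. Whether reads of the transgenes align to these segments, and which alleles gave the rest, was not tested.

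Some genes followed the pattern of a member across the 14 libraries closely. Likeness was measured as the mean absolute difference of log2 CPM after each gene was centred, over 8452 protein-coding candidates with at least 10 CPM on average, and is a description only. Closest to Trac were Cyth1 (0.0882) and Themis (0.115), a T cell protein of receptor signalling. Themis averaged 97.4 ± 2.74 CPM in KO and 257 ± 7.60 CPM in WT, and 327 ± 29.5 CPM in EPZ and 345 ± 21.9 CPM in DMSO. Closest to Cd3d were H2-DMa (0.0529) and Arhgap15 (0.0556), to Cd3e Ccdc34 (0.0485) and Tsc22d4 (0.0510), and to Cd3g Fundc1 (0.0398) and Rpl35 (0.0436). Closest to Cd247 were Zfp655 (0.0499) and Ap3s1 (0.0609), to Trbc1 Rnf14 (0.0552) and Mat2b (0.0567), and to Trbc2 Use1 (0.0387) and Patz1 (0.0434). Among the members themselves Trbc1 and Trbc2 were the most alike (0.0924), followed by Cd3d with Trbc2 (0.107) and Cd3e with Cd3g (0.110). Trac and Cd247 were the least alike (0.623), and the closest member to Trac was Cd3d (0.340).

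Other genes of the receptor pathway were taken from 4 lists. The counts of their called genes stand against 20.3% of all tested genes called higher and 20.2% lower in KO, and 11.9% higher and 8.31% lower in EPZ. Of 11 other antigen receptor and ITAM chains 8 were tested, and in KO 2 were higher and 6 lower (median log2 fold change -1.14, against -0.0064 over all genes). Fcer1g, an ITAM chain of Fc receptors that can pair with zeta, had 61.4 ± 12.8 CPM in KO and 4.44 ± 0.248 CPM in WT (3.81 ± 0.17, adjusted p = 4.3e-09), and Tyrobp, an adaptor of NK receptors with an ITAM, rose by 3.51 (adjusted p = 3.2e-06). Trgc4, a gamma constant region, fell by 3.45 on the log2 scale in KO (SE 0.23, adjusted p = 1.3e-07), and Trdc, the delta constant region, fell by 0.82 to 99.8 ± 3.87 CPM in KO, against 178 ± 18.7 CPM in WT. In EPZ, 1 of these 8 was higher, Fcer1g (1.41 ± 0.24, adjusted p = 0.0025), and 1 lower, Trgc4 (-0.89 ± 0.22, adjusted p = 0.0137), with a median of -0.15. These are shares near those of all genes.

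Of 9 co-receptors and associated surface molecules tested in KO against WT, 7 were lower and 0 higher (median -0.83). The CD8 co-receptor genes fell, with log2 fold changes of -2.60 ± 0.11 for Cd8a and -2.33 ± 0.07 for Cd8b1 (adjusted p = 4.5e-10). Cd6, a surface molecule that associates with the receptor, fell by 3.24 on the log2 scale (SE 0.11, adjusted p = 6.4e-10). In EPZ 5 of 10 were lower and 0 higher (median -0.44), among them Cd8a (-1.06 ± 0.06) and Cd6 (-1.06 ± 0.07, adjusted p = 8.5e-06). Cd28, the receptor of the costimulation given in the culture, did not pass in KO (0.12, adjusted p = 0.21) or in EPZ (-0.04, adjusted p = 0.68).

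Among 30 proximal signalling genes 5 were higher, a share near that of all genes, and 19 lower in KO (median -0.43). Themis (-1.39 ± 0.06), the adaptor Grap2 (-1.24 ± 0.06) and the phospholipase Plcg1 (-1.86 ± 0.11, adjusted p = 3.4e-08) fell. Syk, the kinase related to Zap70 that binds phosphorylated ITAMs, rose to 15.5 ± 2.18 CPM in KO, against 1.02 ± 0.363 CPM in WT (4.11 ± 0.24, adjusted p = 4.6e-08). Zap70 itself had a change of -0.14 (adjusted p = 0.063). In EPZ 2 of the 30 were higher and 9 lower (median -0.15), and Syk again rose, to 7.62 ± 0.735 CPM in EPZ, against 1.53 ± 0.245 CPM in DMSO (2.29 ± 0.16, adjusted p = 1.1e-05), while Sla2 (-0.61 ± 0.07), Plcg1 (-0.49 ± 0.06) and Ubash3b (-0.33 ± 0.06) fell. Of 17 transcription factors known to act on receptor or CD3 loci, 3 were higher and 11 lower in KO (median -0.29), with Satb1 (-1.51 ± 0.07) and Bcl11b (-2.11 ± 0.10) having the smallest adjusted p, and 0 were higher and 8 lower in EPZ (median -0.24), with Myb (-0.87 ± 0.12) and Bcl11b (-0.46 ± 0.07) first.

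The genes of these lists named first in KO were picked by adjusted p in a fit that includes KO 1 and WT 1. That they kept their direction without the 4 libraries of differing sex (edgeR quasi-likelihood test) is therefore not a separate check. There Fcer1g changed by 3.54 (adjusted p = 3.3e-04), Trgc4 by -3.41 (adjusted p = 0.00374), Cd6 by -3.07 (adjusted p = 3.0e-06), Cd8a by -2.48 and Cd8b1 by -2.38. Themis changed by -1.42 (adjusted p = 5.3e-04), Grap2 by -1.16, Plcg1 by -1.67 and Syk by 3.48 (adjusted p = 2.2e-04), and Satb1 by -1.52 (adjusted p = 0.00127) and Bcl11b by -1.86. The median log2 fold change was then -1.27 over the 8 other receptor and ITAM chains tested and -0.63 over the 10 co-receptors. It was -0.40 over the 30 signalling genes and -0.31 over the 17 factors, against -0.02 over all genes tested.

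**Figure D5:**
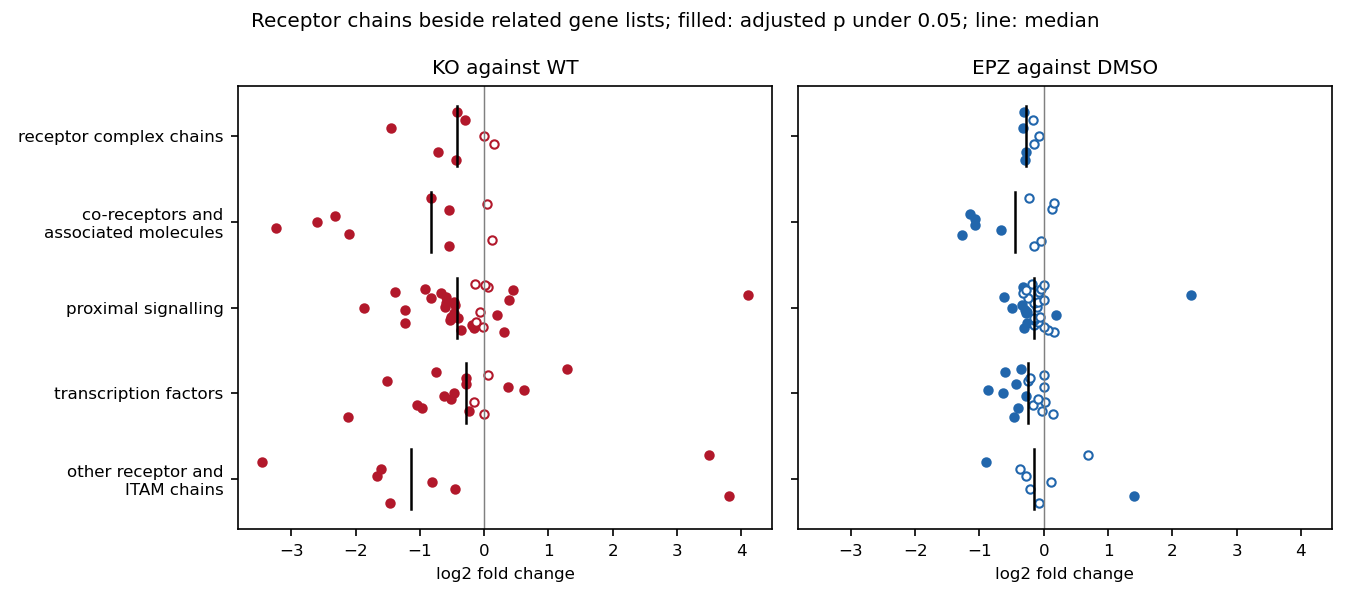
Log2 fold change of the receptor chains and of the tested members of 4 related gene lists, for KO against WT on the left and EPZ against DMSO on the right, with filled points for an adjusted p under 0.05 and a line at each median. The median of the chains is -0.42 in KO and -0.27 in EPZ, and that of the co-receptors -0.83 in KO and -0.44 in EPZ.

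Between the control cultures, 48.6% of all tested genes were called, 23.7% higher and 24.9% lower, and the counts of the lists stand against these shares. In WT against DMSO 4 of 8 other receptor and ITAM chains were higher and 1 lower, with Fcer1g (1.56) and Trgc4 (0.97) first, and 1 of 10 co-receptors was higher, Cd28 (0.41), and 4 lower, with Cd4 at -3.04. Of the 30 signalling genes 6 were higher and 10 lower, with Sla2 (-1.27), Ptpn22 (-0.83), Ubash3b (-0.68) and Sla (-0.67) lower, and of the 17 factors 2 were higher and 12 lower, with Ets1 (-1.04) and Elf1 (-0.95) first.

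Markers of other cells were read beside these results. The 8 T cell markers, which include the CD3 and zeta genes, summed to 4315 to 4493 CPM in KO and 4727 to 5247 CPM in WT, and to 4445 to 4621 CPM in EPZ and 4415 to 4928 CPM in DMSO. The 5 NK cell markers summed to 74.9 to 92.5 CPM in KO and 14.6 to 24.1 CPM in WT, and to 22.5 to 34.2 CPM in EPZ and 4.75 to 7.14 CPM in DMSO. Most of this was Klrb1c, and Ncr1, a defining NK receptor gene, averaged 4.52 ± 0.878 CPM in KO and was at 0 in every WT library. Klre1, another NK receptor gene of the list, did not follow them, at 3.26 ± 0.934 CPM in KO and 4.62 ± 1.30 CPM in WT (-0.58, adjusted p = 0.0732). Klra8 was at 0 in every KO and WT library, and Klra4 had 2 counts in KO and 0 in WT. The 7 myeloid and dendritic cell markers summed to 27.2 to 38.8 CPM in KO and 6.96 to 9.58 CPM in WT, of which Itgax gave 32.3 ± 5.37 CPM in KO and 8.02 ± 1.31 CPM in WT on average. Of the defining myeloid genes, Csf1r and Xcr1 were at 0 in every KO library and Lyz2, Adgre1 and Fcgr1 at or under 0.224 CPM. The 7 markers summed to 4.73 to 6.07 CPM in EPZ and 3.52 to 6.73 CPM in DMSO. The 4 gamma delta markers summed to 95.8 to 104 CPM in KO and 157 to 194 CPM in WT, and to 218 to 247 CPM in EPZ and 199 to 228 CPM in DMSO, nearly all of it Trdc. The 4 CD4 T cell markers summed to 34.2 to 38.0 CPM in KO and 25.1 to 30.8 CPM in WT. In EPZ they summed to 26.8 to 29.7 CPM, and in DMSO to 29.9 to 35.7 CPM. In KO, Zbtb7b was higher (0.70, edgeR quasi-likelihood test, adjusted p = 3.2e-05) and Foxp3 lower (-2.16, adjusted p = 1.8e-04). In EPZ, Cd4 (-1.27) and Foxp3 (-1.27) were lower and Zbtb7b (0.35) was not called. The 6 B cell markers stayed at or below 0.747 CPM in every library, and the 5 erythroid and platelet markers at or below 1.34 CPM. The part of the NK, myeloid and CD4 markers in the changes of the receptor chains was not tested.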

How the data were processed

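The deposited values are raw read counts per Ensembl gene, 1 column for each of 14 libraries of stranded polyadenylated RNA, with no normalization by the authors. Per the submitters' processing notes, TopHat2 2.1, Bowtie 1.1 and HTSeq were used with mm10. The sources used here do not give the annotation release or whether counting used strand. The coordinates of 54906 genes (99.0%) equal those of GENCODE M21. 1 line that named no gene was dropped, with 0 counts on it. Library totals ran from 5643724 to 20586093 counts, and no replicate pair was a copy of another (chi-square per degree of freedom 2.05 to 18.1). The lowest value, 2.05, was that of KO 1 with KO 2, and the next, 4.19, that of KO 1 with KO 3. KO 2 is labelled female but was read as male, as was KO 1. Whether these 2 libraries come from different animals was not tested.

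The tests across genes used edgeR 4.0.16 under R 4.3.3 with TMM, filterByExpr (at least 10 counts, and 15 in total) and the quasi-likelihood F-test. Genes were called at a Benjamini-Hochberg adjusted p of 0.05 over all genes tested. The scripts were first tested on simulated data. The contrast of the KO and EPZ effects was fitted on all 14 libraries, the other comparisons on their own groups. Within-library ratios were compared by an exact permutation test, two-sided, with p-values adjusted over all 21 comparisons of ratios. DESeq2 1.42.0, its size factors, other filters, all libraries in 1 fit, a replicate block, measured sex and omission of each library were alternatives. P-values measure the spread between the libraries of a group, or what remains of it after a block or covariate. In the fits without the 4 libraries of differing sex they rest on the spread of the EPZ and DMSO libraries only.

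Same-numbered DMSO and EPZ libraries came from the same animals, per the library names (correlations of their deviations from the group means 0.0324 to 0.554). In EPZ against DMSO the animal block is therefore given where it changes a call. The KO effect minus the EPZ effect was not fitted with that block. KO and WT libraries came from different animals by the library names alone, which was not tested. The members and gene lists were chosen with earlier results of these data known. Named genes are all members, Dot1l, Cd8a, Cd8b1, up to 4 called signalling genes and up to 2 called genes of every other list per comparison by adjusted p, and the 2 genes most like each member in pattern. Tyrobp, Trdc, Zap70, Cd28 in KO and EPZ, and the markers were added after their values were seen.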

Additional observations from a re-analysis of the deposited data

Results flagged for a closer look

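The Trbc1 share of both beta constant regions was 46.1% in EPZ library 1, set apart from the other 3 EPZ libraries, which ran from 43.0% to 43.2%. Its gap to the nearest library was 0.922 of the range of the group. Over the 28 groups examined in this way, chance sets apart a library in about 1 of 20. The DMSO library of the same animal had 41.7%.

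The effect on Trac differed between KO against WT and EPZ against DMSO, by -1.13 on the log2 scale (edgeR quasi-likelihood test on all 14 libraries, adjusted p = 5.7e-06). Trac was lower in 3 of 3 KO libraries than in every WT library, and in 4 of 4 EPZ libraries than in every DMSO library. The effect on Cd3d differed as well, by -0.45 (adjusted p = 0.0271), a call that omission of single libraries ended.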

How the results depend on the processing

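Of the recomputed log2 fold changes of members, 492 kept their direction and their side of the threshold, 29 lost the call, 5 gained it and 10 changed sign, all of the last without a call. The sign changes were those of Cd3g in KO against WT, which lay at 0.0066 with DESeq2 and with its size factors in edgeR, 0.020 with the filter at 10 CPM, 0.0036 with the replicate numbers as a block, and -0.052 to 0.090 without single libraries, of Cd3g without the 4 libraries of differing sex, which lay at -0.185 in the KO effect minus the EPZ effect and at 0.0876 in WT against DMSO, and those of Trbc1 relative to Cd3e in EPZ against DMSO, which ran from -0.061 to 0.036 without single libraries. The KO effect minus the EPZ effect of Cd3e was 0.33 with DESeq2 and 0.34 with the 10 CPM filter, both called, so that 1 member was then called higher, and 0.22 to 0.36 without single libraries. Cd3e in WT against DMSO was -0.21 and not called with DESeq2 size factors. With the animal as a block in EPZ against DMSO, Trbc1 was -0.17 and called, as was Trbc2 relative to Cd3e at -0.16. In that comparison the block changed no other call of a member, and the KO effect minus the EPZ effect was not fitted with it. The KO and WT numbers do not pair animals (correlations 0.0403, -0.163 and -0.173), and their block changed no call. Without the 4 libraries of differing sex, calls were lost for Trbc1 in KO against WT (-0.39), for Trbc1 (-0.42) and Trbc2 (-0.54) relative to Cd3e, for Cd3d in the KO effect minus the EPZ effect (-0.56), and for Trbc1 (-0.10) and Cd3e (-0.14) in WT against DMSO. Both the libraries and the form of the fit changed there, and the cause was not tested. All but the first of these fits were chosen after the data had been seen. Leaving out single libraries gave -0.33 to -0.23 for Cd3d in EPZ against DMSO, -0.50 to -0.36 for Cd3d in the KO effect minus the EPZ effect, -0.27 to -0.14 for Cd3e and -0.29 to -0.19 for Trbc1 in WT against DMSO. Members called then ran from 0 to 1 higher and 1 to 2 lower in the KO effect minus the EPZ effect, and from 1 to 3 lower in WT against DMSO. Over all genes, 879 were called higher in EPZ with the 10 CPM filter, against 1449, and 479 higher and 435 lower in KO without the 4 libraries, against 2345 and 2333. Without them, 27 were called higher and 41 lower in the KO effect minus the EPZ effect, against 416 and 545, and 366 higher and 351 lower in KO relative to Cd3e, against 1255 and 3191. Without EPZ 4, 610 were called lower in EPZ, against 1014. In the KO effect minus the EPZ effect, 265 were called higher without KO 3, against 416, and 302 lower without KO 2 and 362 without KO 3, against 545. Relative to Cd3e, 1763 to 1852 were called higher in EPZ without DMSO 1, DMSO 2, EPZ 2 or EPZ 4, against 2813, 232 lower without EPZ 4, against 352, and 1986 lower in KO without KO 2, against 3191. The ratios without single libraries kept adjusted p from 0.12 upwards.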
